A study of Caenorhabditis elegans with 7 samples.

Results

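The vehicle worms of this study are its reference animals, and they were described here on their own, as the transcriptome of *C. elegans* without drug on adult day 7. Wild-type N2 Bristol worms grew at 25 °C on nematode growth medium with OP50 bacteria. They received the solvent DMSO from the fourth larval stage (L4) onward and were washed off the plates for RNA on adult day 7. The arrays titled as controls were taken, which gave 4 of the 7 arrays in the series. The remaining arrays hold tomatidine-treated worms and were not compared with these. One label field calls the 4 samples untreated and another names the DMSO vehicle, and the methods speak of vehicle. Each array holds Cy3-labeled material from total RNA of packed whole worms. The 4 samples also carry different short descriptions that no source used here explains, and whether these mark differing conditions is not known. The labels describe separate experiments, whereas the methods also name a hybridization of combined preparations without saying which array that is, so the spread between arrays may understate the spread between cultures. No transgene or mutation is named for these worms.

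A hermaphrodite worm makes a limited stock of sperm before adulthood and then only oocytes, so reproduction slows when its own sperm run out. The intestine supplies the ovary with yolk lipoproteins called vitellogenins, which oocytes take up through a receptor, and the oocyte later builds an eggshell of chitin and proteoglycans. The epidermis secretes collagens for the cuticle, in large bursts at each larval moult and at a lower level in adults. The intestine also meets bacteria and foreign compounds, and carries much of the worm's defence and detoxification machinery.

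Signals are given as normalised log2 signal, which is the log2 processed signal of each array brought to the same mean and standard deviation (SD) on the 4 arrays. A step of 1 is a 2-fold step in normalised signal, and since the arrays had SDs of 4.21, 3.73, 3.97 and 4.20 before scaling it is not exactly 2-fold in the signal measured on an array. A probe's brightness also depends on its sequence, so an order of genes by signal is an order of brightness and only roughly one of transcript number. In whole worms, fewer cells of a type and less RNA per cell cannot be told apart.

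Markers of the main adult tissues were present. All 6 intestinal markers were well above background on all 4 arrays, with a median signal of 14.30, as were all 5 markers of body wall muscle (median 13.11), all 4 of the pharynx (10.39), all 5 of neurons (9.69) and all 8 of the germ line and oocytes (15.63). The yolk gene *vit-2* averaged 18.02 ± 0.45, the oocyte yolk receptor *rme-2* 17.85 ± 0.44, the muscle myosin *unc-54* 13.11 ± 0.45 and the synaptic protein *rab-3* 9.69 ± 0.05 (SD, n = 4 arrays each). Intestinal markers lay far apart, with *ges-1* at 10.09, *elt-2* at 10.56 and *ifb-2* at 11.69, below their median. Above it were *asp-1* at 16.92, *vit-6* at 17.32 and *vit-2*. Epidermal markers were mixed. The adult collagen *col-19* averaged 12.05 ± 0.33, and the collagen *dpy-13* passed on all 4 arrays at a mean of 7.97, while the collagens *dpy-7* and *rol-6* passed background on 1 and 2 arrays and *bli-1* on none. None of the 5 sperm markers with a probe passed on all 4 arrays, with *msp-142* and *ssp-16* on none, although other sperm genes did, as given below. Of the 3 male markers, *lov-1* and *pkd-2* passed on none and *mab-3* on 3. Markers of embryos and larvae passed on all 4 arrays for 4 of 6 genes, at low signals between 7.97 for *hlh-1* and 8.92 for *end-3*, and *pes-10* passed on none.

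The arrays differed in quality. Of the probes, 69.7%, 52.9%, 60.5% and 66.2% were well above background on vehicle replicates 1 to 4. Replicate 2 had the highest net signal of negative controls, at 424, against 75.1 to 114 on the other arrays, and the highest median coefficient of variation between repeated spots, at 20.02%, against 8.49% to 9.33%. Its file header also records no multiplicative detrending, unlike the other headers. Replicates 1, 2 and 3 shared a slide and replicate 4 lay on a second slide. Across the 11740 genes measured on all 4 arrays, pairs of arrays correlated at 0.979 (replicates 2 and 3) to 0.993 (replicates 1 and 3), a description over genes of the same platform. The results that turn most on replicate 2 are also given without it.

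Of 19834 genes with a matched probe, 11740 (59.2%) were well above background on all 4 arrays, 3252 (16.4%) on 1 to 3 arrays and 4842 (24.4%) on none. The genes present on all 4 arrays had a median signal of 11.01, with quartiles of 8.61 and 13.24, and spanned 5.64 to 19.16. Replicate 2 set most of this limit, since 12867 genes passed on the other 3 arrays, whereas leaving out replicate 1 or replicate 4 gave 11740 again.

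**Figure D1:**
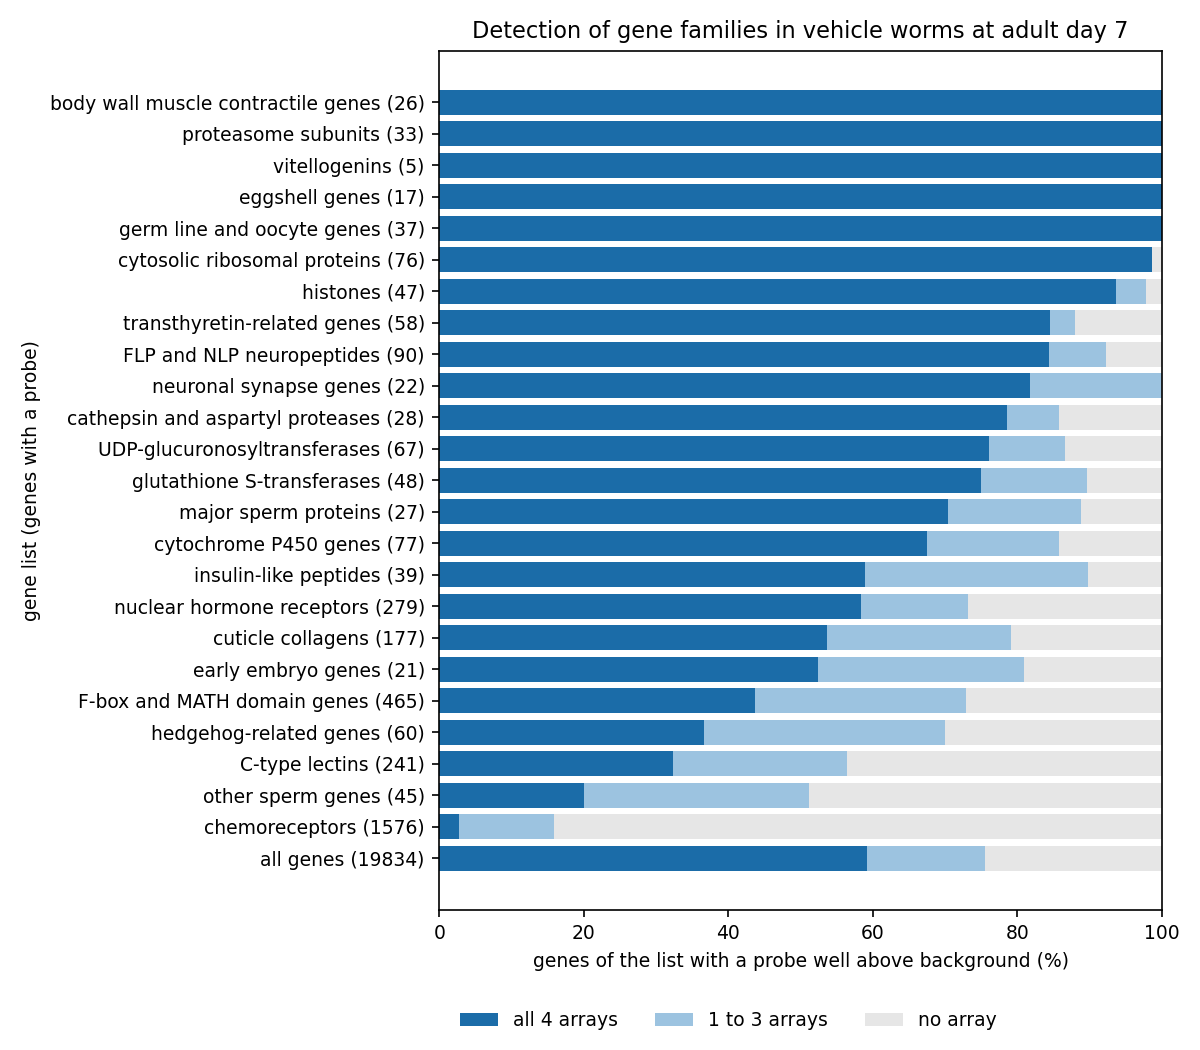
Share of each gene list with a probe well above background on all 4 vehicle arrays (dark bars), on 1 to 3 (light bars) and on no array (grey bars), in percent of the genes with a probe, whose number stands in brackets. Germ line, eggshell, yolk, muscle and proteasome genes fill the axis at 100%, all genes stand at 59.2%, and chemoreceptors end at 2.73%.

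Many of the lists at the top of this order serve reproduction, muscle or basic cell upkeep. All 37 germ line and oocyte genes, all 17 eggshell genes, all 5 vitellogenins, all 33 proteasome subunits, all 21 subunits of the vacuolar ATPase, which acidifies lysosomes, all 26 body wall muscle genes and all 70 mitochondrial ribosomal proteins passed on all 4 arrays. So did 75 of 76 cytosolic ribosomal proteins, 34 of 35 subunits of respiratory complexes I to IV, 16 of 17 glycolytic enzymes and 44 of 47 histones. Among further lists, all 6 pharyngeal muscle genes and all 17 superoxide dismutases, catalases and peroxiredoxins passed too. These shares lie above the 59.2% of all genes. The germ line, eggshell, muscle, respiratory, glycolytic and redox lists name chosen known genes and not whole families. Their shares are therefore not on an equal footing with those of whole families or of all genes. No test between groups was possible, because the 4 arrays form 1 group.

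Vehicle worms were brightest in translation, yolk and eggshell transcripts. Among the 20 brightest genes were 7 cytosolic ribosomal proteins and *rpsa-1*, a further protein of the small ribosomal subunit, together with 2 vitellogenins, 2 eggshell proteoglycans, 2 ribosomal RNAs and the elongation factor *eef-1A.1*. Among the 100 brightest, 51 were cytosolic ribosomal proteins, 4 eggshell genes, 3 vitellogenins, 3 translation factors, 3 germ line genes and 3 ribosomal RNAs. Whether the labeling takes up ribosomal RNA as it does messenger RNA was not tested, so the place of ribosomal RNAs is one of signal only.

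**Figure D2:**
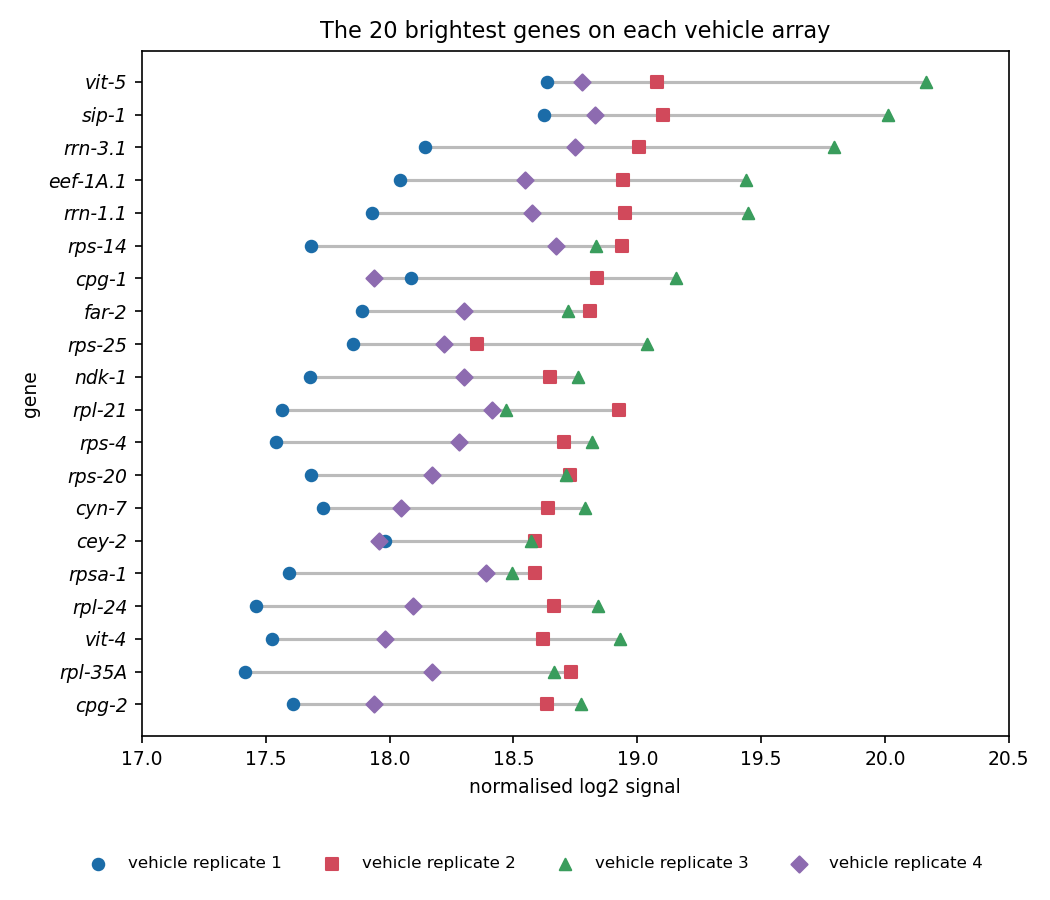
Normalised log2 signal (horizontal axis) of the 20 brightest genes on each of the 4 vehicle arrays (symbols), in order of mean, with a grey line over their range. Replicate 1 (circles) stands leftmost for most genes and vit-5, at the top, spans 18.63 to 20.16.

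The brightest gene was *vit-5*, which encodes a yolk protein. Its signals on replicates 1 to 4 were 18.63, 19.08, 20.16 and 18.78, a mean of 19.16 ± 0.69 (SD, n = 4). The third array stood above the others, by a range of 1.53 on the log2 scale that shrank to 0.37 with quantile normalisation. Its second probe gave 17.74, 18.61, 18.87 and 18.18. The other vitellogenin among the 20 was *vit-4*, at 17.52, 18.62, 18.93 and 17.98, and *vit-2* followed at rank 33 with 17.43, 18.51, 18.12 and 18.04. Over the 5 vitellogenins the median signal was 18.02, with the dimmest at 15.81.

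Next in brightness came *sip-1*, a small heat shock protein of the germ line and embryos, at 18.62, 19.11, 20.01 and 18.83. It stood alone among the small heat shock proteins. The second brightest of the 11 that passed on all arrays, *hsp-25*, had 12.43, 12.57, 12.51 and 12.42, and the stress-induced *hsp-16.41* had 11.68, 12.21, 11.51 and 12.28. The median of the list was 11.57. The cytosolic chaperones *hsp-90* (17.86 ± 0.50) and *hsp-1* (17.82 ± 0.46), which fold proteins in unstressed cells, were brighter than the endoplasmic reticulum chaperone *enpl-1* (16.21 ± 0.29).

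Eggshell genes had a median signal of 15.97 and germ line and oocyte genes one of 14.79, against 11.01 over all genes. The chondroitin proteoglycan *cpg-1*, a part of the shell, had 18.09, 18.84, 19.16 and 17.94, and *cpg-2* had 17.61, 18.63, 18.77 and 17.94. In both, replicates 2 and 3 were highest, which did not hold for *cpg-1* with quantile normalisation (18.80, 18.56, 18.55 and 18.01). The chitin-binding protein *cbd-1* averaged 17.55 ± 0.52. Among germ line genes the brightest were the yolk receptor *rme-2* (17.38, 18.23, 18.20 and 17.57) and the RNA-binding proteins *puf-3* (17.58 ± 0.45) and *pos-1* (17.46 ± 0.42), which act in oocytes and early embryos. The germ line Y-box protein *cey-2* was among the 20 brightest, at 17.98, 18.59, 18.57 and 17.96. The most variable of the 37 were the poly(A) polymerase *gld-2* (12.29, 11.24, 12.76 and 10.90) and *mex-1* (14.41, 13.98, 14.84 and 13.45), both lowest on replicate 4. The mean over the whole list was also lowest on replicate 4, at 14.38, against 14.65, 14.95 and 14.93 on replicates 1 to 3, and the same array was lowest with quantile normalisation. Eggshell genes did likewise, at 15.56 on replicate 4 and 15.67, 16.11 and 16.14 on replicates 1 to 3.

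Ribosomal protein genes lay near the top of the scale. The 75 that passed on all 4 arrays had a median signal of 17.55 and lay between 14.69 and 18.53. Their median SD was 0.51, and 66 (88%) had a range of at least 1, beside 21.8% of all genes. With quantile normalisation their median SD was 0.19, against 0.27 over all genes. The brightest was *rps-14*, at 17.68, 18.94, 18.83 and 18.67, followed by *rps-25* (17.85, 18.35, 19.04 and 18.22) and *rpl-21* (17.56, 18.93, 18.47 and 18.41). Every one of the 3 was lowest on replicate 1, which with quantile normalisation held only for *rps-14*. Mitochondrial ribosomal proteins were dimmer, with a median of 12.53 and *mrpl-40* at their head (14.88 ± 0.29). Among translation factors, *eef-1A.1* had 18.04, 18.94, 19.44 and 18.55, *eef-1A.2* averaged 18.16 ± 0.32 and *eef-2* 18.07 ± 0.39.

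The order of the arrays within bright genes depended on the scaling. Under the scaling used here 96 of the 100 brightest genes were lowest on replicate 1, with a median range of 1.16. With quantile normalisation 28 were lowest on replicate 1 and the median range was 0.39, and with a shift by the 75th percentile 68 were lowest there. Values of bright genes are on the scaling used here unless a quantile value is named.

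Among the other bright genes were *far-2*, a secreted fatty acid and retinol binding protein (18.43 ± 0.42), *ndk-1*, a nucleoside diphosphate kinase (18.35 ± 0.49), and *cyn-7*, a cyclophilin (18.30 ± 0.50; SD, n = 4 arrays each). Some lipid genes were also bright. The carrier *far-1* averaged 16.94 ± 0.48, and the desaturases *fat-1* and *fat-2*, which place double bonds in fatty acids, averaged 16.91 ± 0.41 and 16.81 ± 0.50. All 17 fatty acid and lipid binding proteins passed on all arrays, with a median of 12.88, whereas 13 of 26 lipases did, at a median of 9.69. Enzymes of the methionine cycle had a median of 13.74, led by *ahcy-1*, which hydrolyses S-adenosylhomocysteine, at 16.19 ± 0.49.

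Genes of energy metabolism lay in the upper part of the scale. The ATP synthase subunits had a median of 15.52, with *atp-2* at 16.21, 17.22, 16.49 and 16.37. Respiratory complex subunits had a median of 14.16, led by the cytochrome oxidase subunit *cox-5A* (16.46 ± 0.41) and cytochrome c, *cyc-2.1* (16.29 ± 0.52). Glycolytic enzymes had a median of 14.45, led by the aldolase *aldo-2* at 16.78, 18.04, 17.36 and 17.04. Proteasome subunits had a median of 15.03 and vacuolar ATPase subunits one of 13.80. The median SDs of these 5 lists ran from 0.29 for the vacuolar ATPase to 0.43 for ATP synthase, against 0.31 over all genes, and only the vacuolar ATPase lay below all genes. With quantile normalisation they ran from 0.19 to 0.25, against 0.27.

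Muscle and nerve genes were present at middle signals. Body wall muscle genes had a median of 12.67, with the actin *act-3* at 16.80 ± 0.55 and the giant kinase *ttn-1* at 15.79 ± 0.15. Pharyngeal muscle genes had a median of 10.39, with the troponin *tni-4* at 12.18 ± 0.42 and the myosin *myo-1* at 8.72, 8.53, 7.61 and 8.06. Synapse genes had a median of 9.71, and 18 of 22 passed on all arrays. Neuropeptide genes of the FLP and NLP families passed on all arrays in 76 of 90 cases, at a median of 9.38, with *flp-9* brightest at 13.16 ± 0.37. Insulin-like peptides were dimmer, at a median of 7.92 over the 23 of 39 that passed, and *ins-7*, a ligand of the insulin receptor, was the brightest at 10.96, 10.79, 11.52 and 11.63.

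At the other end of the scale stood families used by few cells or at other stages. Of 1576 chemoreceptor genes, which serve as candidate odour and taste receptors in single sensory neurons, 43 (2.73%) passed on all 4 arrays and 1326 (84.1%) on none, against 59.2% and 24.4% over all genes. Those that passed were dim, with a median of 7.36. C-type lectins passed on all arrays in 78 of 241 cases and on none in 105. The lectins were uneven, since *clec-87* stood at rank 29 with 17.55, 18.36, 18.51 and 17.87, and *clec-88* averaged 16.98 ± 0.49. The dimmest gene among those that passed on all 4 arrays, *clec-224*, had 5.21, 6.08, 5.54 and 5.75.

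Sperm transcripts were mostly dim or did not pass on all 4 arrays. Of 27 major sperm protein genes, whose products drive the crawling of sperm, 19 (70.4%) passed on all 4 arrays, beside 59.2% of all genes. They were dim, since the brightest, *msp-78*, had 8.39, 8.55, 8.03 and 8.73 and the median was 7.16. Members of this family are near-identical copies, so their probes may share signal. Of 45 other sperm genes, 9 passed on all arrays and 22 on none. Those 9 had a median of 10.36, against 11.01 over all genes. The brightest were *spe-44*, a regulator of the sperm program (11.11 ± 0.21), the kinase *spe-6* (10.95 ± 0.22) and *ssp-10* (10.75 ± 0.24). Genes switched on in the early embryo passed on all arrays in 11 of 21 cases at a median of 8.87, the brightest being *pal-1* (14.36 ± 0.25), whose mRNA is also loaded into oocytes.

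Genes of the larval moult and of the developing epidermis were mostly dim. Hedgehog-related genes passed on all arrays in 22 of 60 cases (36.7%), beside 59.2% of all genes. None was above 10.65 (*grl-32*, at 10.997, 10.01, 10.85 and 10.73). Moulting genes passed in 14 of 17 cases (82.4%), above the share of all genes, at a median of 8.40. The brightest were *mlt-9* (13.02 ± 0.59) and the moulting regulator *nhr-23* (11.82 ± 0.59), both above the median of 11.01 over all genes. Nuclear hormone receptors passed in 163 of 279 cases (58.4%), near the share of all genes, at a median of 8.56. They were led by *nhr-49*, a regulator of fat metabolism (14.11 ± 0.15). F-box and MATH domain genes, adaptors of ubiquitin ligases, passed in 203 of 465 cases (43.7%) at a median of 8.90. The 5 dimmest genes that passed on all 4 arrays were *clec-224*, T05E12.8, *ugt-18*, T21B4.15 and *pana-1*, with means from 5.64 to 5.93.

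The 4 arrays differed from each other by a median SD of 0.31 on the log2 scale over the 11740 genes, with quartiles of 0.22 and 0.43. The median range, from the lowest to the highest array, was 0.70, or 1.63-fold in normalised signal. A range of at least 1 was found in 2559 genes (21.8%) and a range of at least 2, or 4-fold, in 80 genes (0.681%). The gene just inside the limit of 2 had a range of 2.0020 and the one just outside had 1.9998. With the genes split by signal into 5 groups of 2348, the median SD from the dimmest to the brightest group was 0.38, 0.33, 0.30, 0.27 and 0.32. With quantile normalisation the dimmest group had 0.33 and the brightest 0.22.

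**Figure D3:**
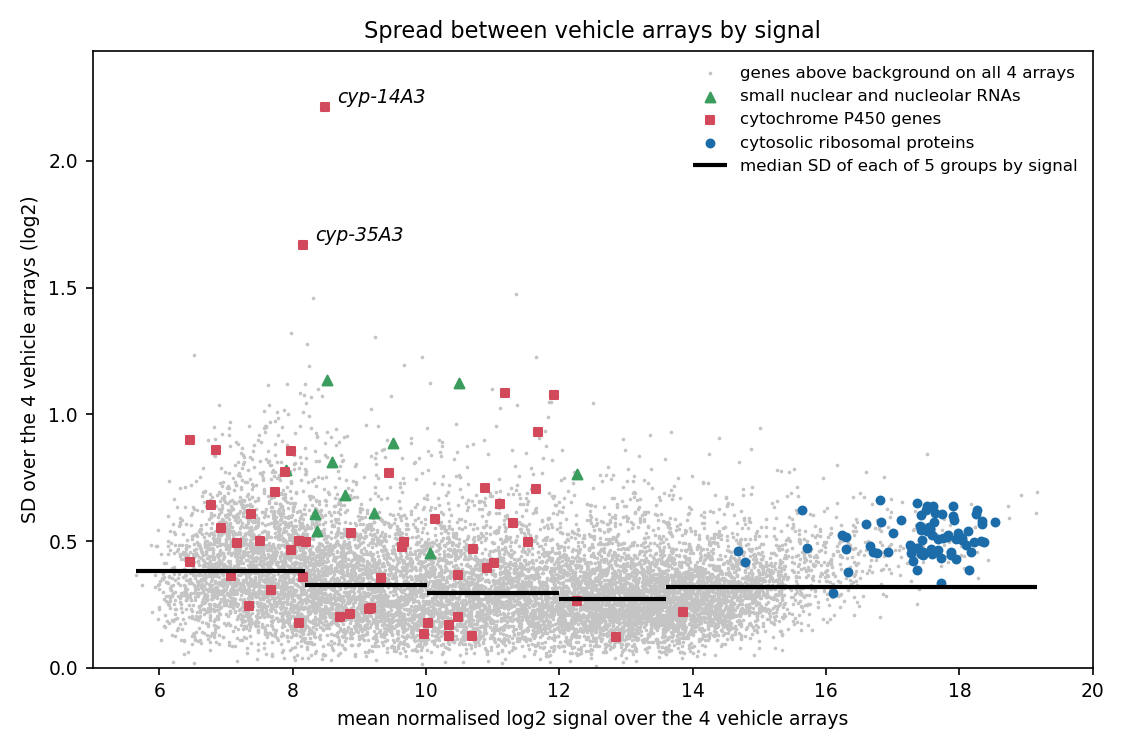
SD over the 4 vehicle arrays (vertical axis, log2) against mean normalised log2 signal (horizontal axis) for each gene present on all arrays (grey dots), with 3 gene groups in colour and black lines at the median SD of each of 5 groups of genes by signal. The cytochrome P450 genes cyp-14A3 and cyp-35A3 stand above every other gene, with SDs of 2.21 and 1.67.

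Replicate 2 carried many of the largest differences. Of the 80 genes with a range of at least 2, 54 were lowest on replicate 2, 19 on replicate 3, 4 on replicate 4 and 3 on replicate 1, and in 43 of them replicate 2 alone lay below the midpoint of the range. Over all genes 25.9% were lowest on replicate 2 and 29.7% on replicate 3. The share lowest on replicate 2 was 46.4% in the dimmest of the 5 groups by signal and 8.86% in the brightest. Without replicate 2, 13 of the 80 genes kept a range of at least 2. With quantile normalisation 35 kept it, and 4 kept it under each of the 3 other scalings and without replicate 2. Those 4 were *cyp-14A3*, *cyp-35A3*, *col-80* and F31C3.14.

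**Figure D4:**
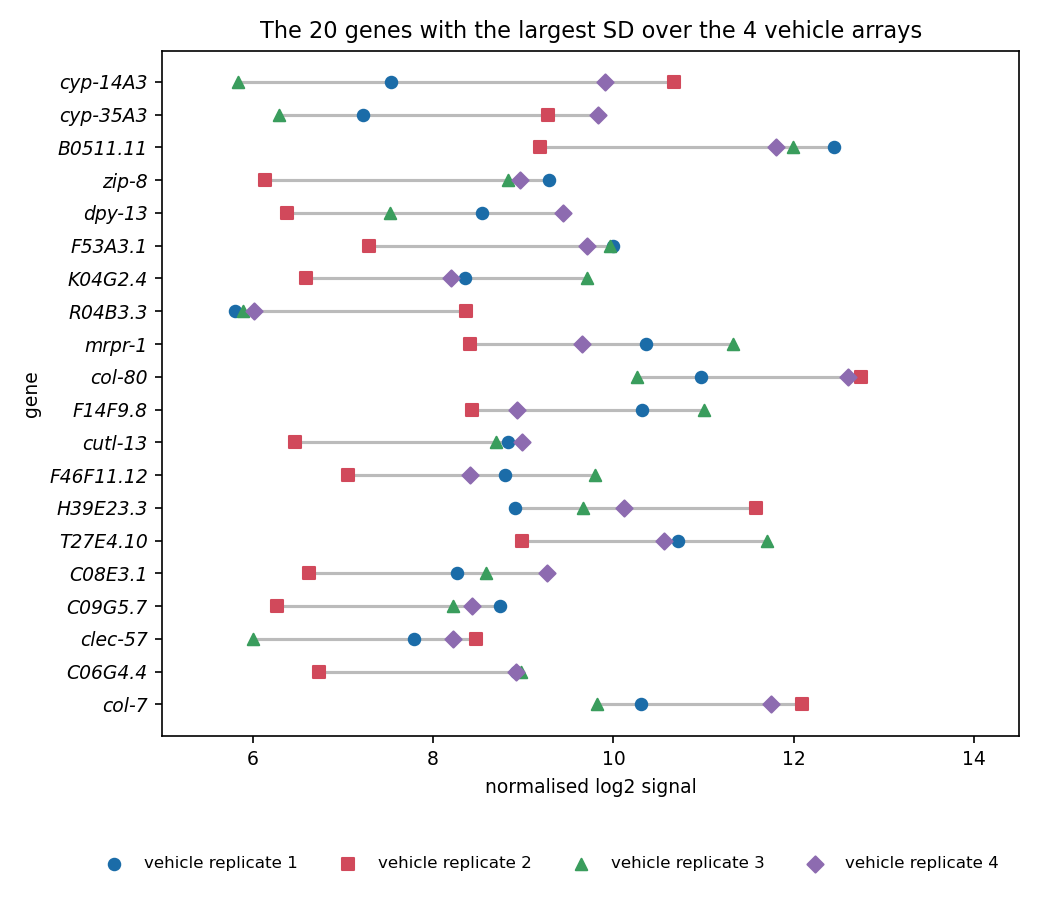
Normalised log2 signal (horizontal axis) of the 20 genes with the largest SD on each vehicle array (symbols), in order of SD, with a grey line over their range. Replicate 2 (squares) stands alone at the left for genes such as zip-8 and C06G4.4, while cyp-14A3, cyp-35A3, col-80 and col-7 have replicates 2 and 4 (diamonds) together at the right.

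The most variable gene was *cyp-14A3*, a cytochrome P450 enzyme of the kind that oxidizes foreign compounds and lipids. It had 7.53, 10.67, 5.84 and 9.90 on replicates 1 to 4, a range of 4.83 or 28.4-fold in normalised signal, with replicates 2 and 4 high and replicates 1 and 3 low. Its processed signals before scaling were 232, 2524, 33.7 and 781. The 33.7 lies below the median processed signal of replicate 3, which was 71.1, so the size of the fold rests on a low value. The range was 4.78 with quantile normalisation, 3.26 with normexp background correction followed by quantile normalisation and 4.16 without replicate 2. The second was a relative, *cyp-35A3*, at 7.22, 9.27, 6.30 and 9.82, a range of 3.53, again with replicates 2 and 4 high. Without replicate 2 its range was 3.61, and with normexp and quantile normalisation it was 2.60. Its processed signal on replicate 3 was 45.9, also below that median. Neither gene has a second probe well above background on all arrays.

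A further 3 cytochrome P450 genes passed the limit of 2 with the same arrangement of arrays. These were *cyp-35A2* (10.88, 12.48, 9.89 and 11.45), *cyp-35C1* (11.25, 13.21, 10.85 and 12.39) and *cyp-25A1* (11.21, 12.77, 10.67 and 12.07). Replicate 3 was lowest and replicate 2 highest in all 3, and without replicate 2 they spanned 1.60, 1.58 and 1.44. In all, 13 of the 80 genes had replicates 2 and 4 above the midpoint of the range and replicates 1 and 3 below it, which is 16.3%, beside 14.1% of all genes. The other 8 were the collagens *col-80* and *col-7*, the lysozyme *lys-2*, the aspartyl protease *asp-17*, *irg-4*, which responds to infection, and C46C2.5, F49C12.7 and Y69H2.3.

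The arrangement was then counted at a range of at least 1. It held for 436 of all genes (3.71%), for 15 of 52 cytochrome P450 genes (28.8%), 12 of 51 UDP-glucuronosyltransferases (23.5%), which attach sugars to foreign compounds, 11 of 22 cathepsin and aspartyl proteases, 5 of 19 saposin-like proteins (26.3%) 18 of 95 collagens (18.9%), 6 of 26 body wall muscle genes (23.1%), 3 of 12 lysozymes and 2 of 12 metal-related genes. With quantile normalisation it held for 456 of all genes and for 19, 11, 9, 3, 15, 3, 1 and 2 genes of these lists. Without replicate 2, replicate 4 alone lay above the midpoint, at a range of at least 1, in 334 of all genes (2.84%) and in 14, 7, 5, 5, 14, 1, 1 and 2 genes of the lists. A range of at least 1 under any arrangement was found in 2559 of all genes and in 26, 18, 17, 11, 54, 12, 9 and 4 genes of these lists. The shares therefore mix the size of the range with its arrangement. Lower shares above 3.71% were found in other lists, such as glutathione S-transferases (11.1%) and F-box and MATH domain genes (5.91%). The arrangement with replicates 2 and 4 high held for none of the 37 germ line, 17 eggshell or 33 proteasome genes and for 1 of 75 ribosomal proteins. The arrangement was noticed in these values before the lists were counted, and genes of a list share their arrays.

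Cytochrome P450 genes passed background on all arrays in 52 of 77 cases, at a median signal of 9.25 and a median SD of 0.48. Their mean was 9.28, 9.54, 8.82 and 9.78 on replicates 1 to 4 and 9.18, 9.65, 8.88 and 9.70 with quantile normalisation. Replicate 4 was highest and replicate 3 lowest on both scales. The brightest members moved little: *cyp-31A3*, which takes part in making the eggshell's lipid layer, had 13.86, 14.14, 13.62 and 13.77, and the mitochondrial *cyp-44A1* had 12.79, 13.03, 12.85 and 12.76.

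UDP-glucuronosyltransferases had a smaller spread, at a median SD of 0.36. Their mean was 9.07, 9.20, 8.80 and 9.45, with the same arrays at the ends, also with quantile normalisation. The brightest were *ugt-25* (12.85, 13.85, 12.44 and 13.38), *ugt-44* (12.45 ± 0.58) and *ugt-22* (12.42 ± 0.65). Glutathione S-transferases, which attach glutathione to reactive compounds, passed in 36 of 48 cases, with *gst-1* brightest at 15.57, 16.81, 16.04 and 15.85.

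**Figure D5:**
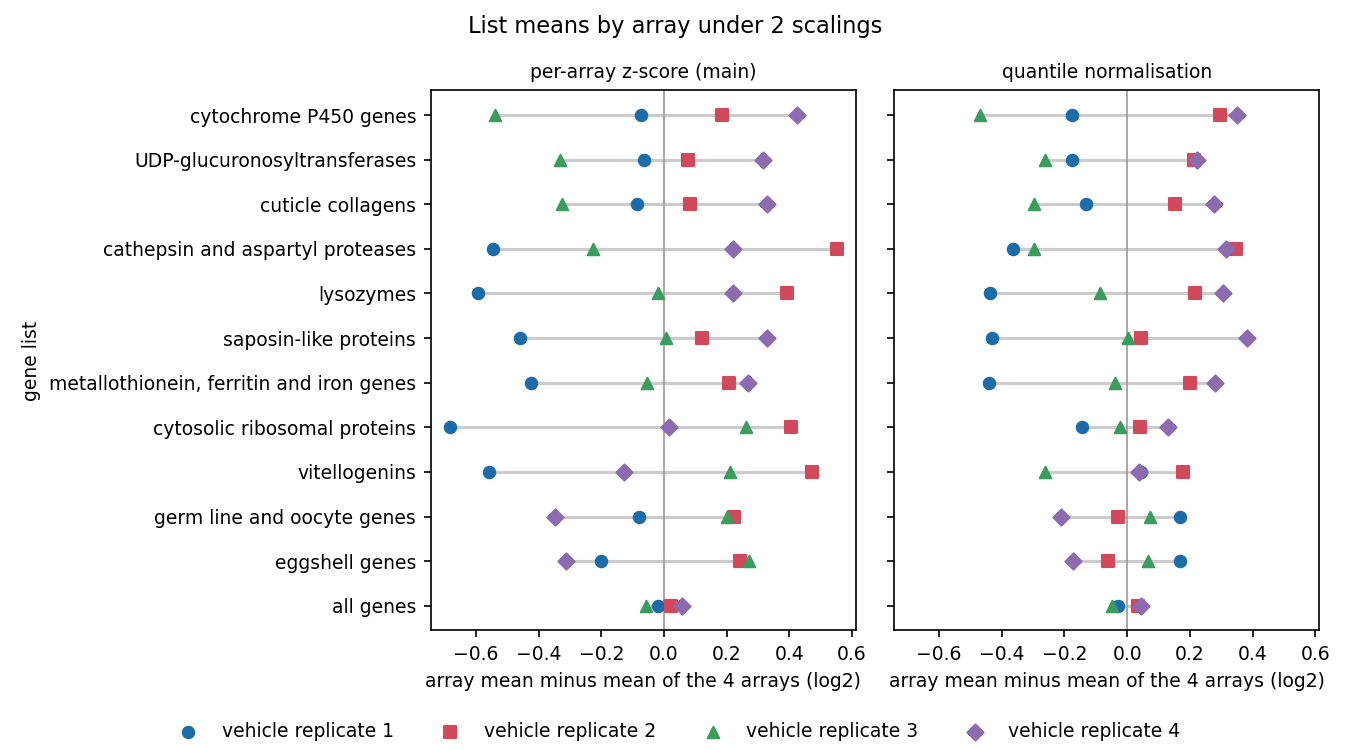
Mean signal of each gene list on each vehicle array (symbols) minus the mean of the 4 arrays (horizontal axis, log2), under the per-array z-score (left) and quantile normalisation (right). Cytochrome P450 genes, UDP-glucuronosyltransferases and collagens have replicate 4 highest and replicate 3 lowest in both panels, whereas the wide spread of ribosomal proteins at the left, 1.09, narrows to 0.27 at the right.

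Collagens spread more than most families. Of 177 with a probe, 95 passed on all arrays, at a median signal of 9.63 and a median SD of 0.50, and 54 of these 95 (56.8%) had a range of at least 1, beside 21.8% of all genes. The brightest were *col-63* (16.63, 17.51, 17.22 and 17.50), *col-122* (16.34, 17.93, 17.25 and 17.03) and *sqt-3* (16.03, 17.38, 16.69 and 16.81). The collagen *dpy-13*, named for the dumpy shape of its mutants, was the most variable, at 8.54, 6.38, 7.53 and 9.44. It was lowest on replicate 2 and its range without that array was 1.96. Second came *col-80*, at 10.98, 12.75, 10.26 and 12.60, with a range of 2.49 that was 2.399 without replicate 2 and 2.35 with quantile normalisation. The list mean was 10.18, 10.35, 9.95 and 10.60. In *col-7* (10.31, 12.09, 9.82 and 11.74) the second probe did not follow the first, with 8.01, 7.06, 7.47 and 7.61.

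Many defence and digestion genes were bright. Cathepsin and aspartyl proteases, which digest protein in the gut and lysosomes, had a median signal of 14.84 and a median SD of 0.60, at the top of the 44 lists together with the vitellogenins (0.60). With quantile normalisation the proteases and the saposin-like proteins both had 0.49 and the vitellogenins 0.19. The brightest were *cpr-1* (16.63, 17.87, 17.77 and 17.58), *asp-5* (16.17, 17.60, 16.98 and 17.10) and *asp-1* (16.25, 17.74, 16.98 and 16.70). All 3 were lowest on replicate 1, also with quantile normalisation, where they spanned 0.49, 0.63 and 0.65, and 17 of the 22 members had a range of at least 1. The most variable were *asp-17* (9.18, 11.25, 10.002 and 10.52) and *cpr-5* (11.34, 13.09, 11.33 and 12.39).

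Lysozymes, which cut bacterial cell walls, had a median of 13.97 and a median SD of 0.53, which was 0.27 without replicate 1, against 0.32 over all genes without it. The brightest, *lys-7*, had 17.18, 18.20, 18.24 and 17.74, a range of 1.06 that was 0.11 with quantile normalisation. In contrast *lys-2* had 13.06, 14.74, 12.74 and 14.13, with a quantile range of 1.80. Saposin-like proteins, small proteins that act on membranes, had a median SD of 0.53, with *spp-14* brightest (15.45, 16.79, 16.29 and 16.40) and *spp-23* most variable (10.62, 12.59, 11.26 and 12.28). Among epidermal antimicrobial peptides *nlp-27* was brightest (14.18, 15.07, 15.30 and 14.76) and *cnc-2* most variable (10.70, 12.46, 11.68 and 12.14). For lysozymes, saposin-like proteins and these peptides the list mean was lowest on replicate 1 under both scalings. This is not particular to them, since 21 of the 44 lists were lowest there, and 19 with quantile normalisation. Without replicate 1 the median SD of the peptides was 0.26, against 0.42 with all 4 arrays.

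Metal-binding genes and redox enzymes completed the stress-related lists. Ferritin *ftn-2*, which stores iron, had 15.13, 16.06, 15.59 and 15.54. The metallothionein *mtl-2* was highest on replicate 3, at 12.55, 13.34, 14.43 and 13.16, while *mtl-1* had 13.15, 13.97, 13.97 and 13.34. Superoxide dismutases, catalases and peroxiredoxins had a median of 13.57 and a median SD of 0.34, with the peroxiredoxin *prdx-2* at 16.48 ± 0.45 and *sod-1* at 16.22 ± 0.29.

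Most of the remaining genes with the largest SD were set apart by replicate 2. The third, B0511.11, had 12.45, 9.18, 11.99 and 11.81, and its range of 3.27 was 0.66 without replicate 2. The bZIP factor *zip-8* had 9.29, 6.13, 8.83 and 8.97, and F53A3.1 had 9.99, 7.29, 9.96 and 9.71. Without that array they spanned 0.47 and 0.29. The same arrangement was seen for *cutl-13*, a cuticlin-like gene (8.83, 6.47, 8.69 and 8.99), C09G5.7 (8.74, 6.27, 8.22 and 8.43) and C06G4.4 (8.92, 6.73, 8.97 and 8.92), whose ranges without replicate 2 were 0.30, 0.53 and 0.06. High on replicate 2 instead were R04B3.3, at 5.80, 8.37, 5.89 and 6.01, and H39E23.3, at 8.90, 11.57, 9.66 and 10.11, whose second probe gave 8.87, 11.64, 9.57 and 9.93. Without replicate 2 they spanned 0.22 and 1.24. C08E3.1 and its neighbour C08E3.13 were both among the 80, as were the neighbours *col-80* and C09G5.7.

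Small non-coding RNAs went together and were highest on replicate 3. Probes of 11 small nuclear and nucleolar RNAs, which act in splicing and in ribosomal RNA modification, passed on all 4 arrays. All 11 were highest on replicate 3 and lowest on replicate 2, beside 19% and 25.9% of all genes, with ranges from 1.09 to 2.74 and a median SD of 0.76. With quantile normalisation all 11 remained highest on replicate 3, while 4 of the 5 small nuclear and 5 of the 6 small nucleolar RNAs remained lowest on replicate 2. The snoRNA F46F11.12 had 8.80, 7.06, 9.80 and 8.41, the snRNA T27E4.10 10.72, 8.98, 11.70 and 10.56, and the brightest, the snoRNA Y24D9A.9, 11.73, 11.60, 13.25 and 12.49. Without replicate 2 their ranges were 0.68 to 1.57. How the labeling takes up such RNAs was not tested, so these values describe signal and not amount.

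The 3 ribosomal RNA genes were also highest on replicate 3. The large-subunit *rrn-3.1* had 18.14, 19.01, 19.79 and 18.75 and the small-subunit *rrn-1.1* had 17.93, 18.95, 19.45 and 18.58. Those ranges fell to 0.20 and 0.18 with quantile normalisation, at the top end of the scale. The gene *rrn-2.1* kept its difference, with 16.998, 17.13, 18.77 and 17.15 and a quantile range of 1.59. The non-coding RNA F31C3.14, which carries the same clone name as these 3 genes, had 11.65, 11.40, 13.36 and 10.97, and *mrpr-1*, another non-coding RNA, had 10.37, 8.41, 11.32 and 9.66, followed by its second probe (10.30, 8.69, 10.59 and 9.43). Copies of ribosomal RNA genes are near-identical, so their probes cannot tell them apart. Here too the uptake by the labeling was not tested, and the values describe signal and not amount.

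The most even genes, among those with a signal above the median, held within 0.1 on the 4 arrays. ZK546.5 had 12.55, 12.56, 12.55 and 12.56, and *mob-2*, an activator of a protein kinase, had 11.13, 11.15, 11.17 and 11.14. Others with roles in RNA and chromatin were *puf-8*, a germ line RNA-binding protein (12.95 ± 0.02), *nrde-2* of the nuclear RNA interference pathway (12.17 ± 0.03) and the histone acetyltransferase *hat-1* (11.18 ± 0.04). The list was completed by *efhd-1*, C03B8.2, F14H12.3, F23H11.4 and Y45G5AM.9. This evenness was partly a matter of scaling and probe, since with quantile normalisation the 10 genes spanned 0.12 to 0.31, and the second probe of *mob-2* gave 9.04, 9.36, 8.00 and 8.88.

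Second probes were compared with the first. Among the 3455 genes with a second probe well above background on all arrays, both probes named the same highest and the same lowest array in 1182 (34.2%). Among the 18 of these with a range of at least 2 it was 15 (83.3%), and in 16 the second probe had a range of at least 1 and in 7 one of at least 2. Repeated spots of a probe on an array, available for 18 probes present on all arrays, had a median SD of 0.13, against a median SD of 0.32 between arrays for the same probes.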

How the data were processed

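Worms of the vehicle group were measured on Agilent *C. elegans* 4 x 44K arrays in 1 colour. Scans were read by the authors with Agilent Feature Extraction 11.5.1.1. The deposited processed signal is an intensity per spot, corrected for background inside each array and left unscaled between arrays. It is also corrected for spatial trend, although the header of replicate 2 records no multiplicative detrending. A second table deposited by the authors gives a score per spot, namely the array-wise z-score of the log intensity. No spot was saturated.

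Controls and outlier-flagged spots were excluded, and repeated spots of a probe were averaged as log2 values, after which 58 probes without a usable spot on some array were dropped. Of 43603 probes, 34544 matched 1 gene in a RefSeq gene table by sequence name, accession or symbol, and 9059 did not and are described apart. Log2 signals were z-scored on each array, multiplied by the mean SD and added to the mean of the 4 arrays. A probe was well above background on an array where the scanner file marks it so. The brightest probe among those well above background on all 4 arrays stood for its gene. Precision of an SD is limited by there being 4 arrays.

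With 1 group there was no test between groups, and values are descriptions apart from a check of single arrays by Dixon's ratio. Genes named were drawn from the 20 brightest, the 20 with the largest SD and the 5 dimmest. Further sources were the 10 with the smallest SD among genes brighter than the median, and the tissue markers. For each list the 3 brightest and the 2 most variable members were also drawn on. Not every member of these sets is named in the text. Genes with a range of at least 2 that share an arrangement of arrays or a class were added. These additions were chosen after their values were seen. Gene lists (44) were written by hand from names and families. The list of chemoreceptors was cut to receptor families, and an intestinal actin was removed from the pharyngeal list, after values were seen. The rule for the worms, the lists and the markers were chosen with earlier results of these data known. Alternatives were a 75th percentile shift, quantile normalization, normexp background correction (limma 3.58.1 under R 4.3.3, offset 50) on the median signals followed by quantile normalization, the deposited z-scores, other filters and the removal of each array. Those median signals are also an intensity, as deposited by the authors, and no mean signals were used. The processing was tested on simulated data. Sequences of probes, promoters and proteins were not used here.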

Additional observations from a re-analysis of the deposited data

Results flagged for a closer look

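A value was looked at again where 1 array lay far from the other 3, by the ratio of its gap to the whole range of the 4 arrays against Dixon's critical value for 4 values. Of 102 values examined, 8 passed, and 7 of the 8 concerned vehicle replicate 2. Chance flags about 1 in 20, but the most variable genes were named for a large SD over the same 4 arrays, so that share is no measure for these.

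Replicate 2 lay far from the other arrays for 5 of the most variable genes. The ratio was 0.974 for C06G4.4, 0.896 for F53A3.1, 0.918 for R04B3.3, 0.883 for *cutl-13*, a cuticlin-like gene, and 0.853 for the bZIP factor *zip-8*. R04B3.3 was high on replicate 2 and the other 4 were low. Replicate 2 also stood apart in the net signal of its negative controls (ratio 0.888) and in the median coefficient of variation of its repeated spots (ratio 0.927). Whether these have a part in the signals of the 5 genes was not tested.

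The mean signal of the synapse genes was set apart on replicate 3, with a ratio of 0.839. The list mean was 10.03, 9.99, 9.81 and 10.02 on replicates 1 to 4, so the gap was small in size. Over all 11740 genes 587 passed the same ratio, which is that chance share, and 238 of them did so on replicate 2.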

How the results depend on the processing

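No paired analysis was possible because the 4 arrays form 1 group and no test was run. The count of genes well above background on all arrays and on none stayed within 1.5 times its value under the alternatives run. The median SD of 0.31 was 0.274 with the 75th percentile shift, 0.268 with quantile normalization, 0.236 with normexp followed by quantile normalization, 0.410 with no filter on dim probes and 0.278 to 0.319 when 1 array was left out. The 80 genes with a range of at least 2 became 53 with quantile normalization, 14 with normexp and quantile normalization (the cause was not tested), 282 where 3 arrays above background sufficed, 919 with no filter, 257 with unmatched probes kept (an alternative chosen after seeing the data) and 19 to 56 when 1 array was left out, the lowest without replicate 2. Of the 20 brightest genes 13 were shared where a gene's probes were averaged. Of the 20 most variable, 8 were shared with normexp and quantile normalization, 12 with outlier spots kept, 2 where 3 arrays sufficed, 2 with no filter, 4 with unmatched probes kept and 5 to 17 when 1 array was left out. Among the brightest, most variable, most even and dimmest genes, those with an SD above the median of all genes numbered 44. This count was 28 with quantile normalization and 25 with normexp and quantile normalization. The most variable and most even genes were picked by this same SD under the scaling used here. The fall in the count is therefore no measure for genes in general. Of the values for single lists, the median SD moved by more than its spread between arrays in 107 cases and by less in 421. The number of arrays and the background of replicate 2 limit what dim genes can show.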

Other observations

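Probes whose name could not be paired with a gene held larger differences between the arrays than gene probes. They carry 5740 names, mostly of expressed sequence tags and of the array maker's own probes, and 1690 names were well above background on all 4 vehicle arrays, at a median signal of 9.32 and a median SD of 0.40. Of these, 177 (10.5%) had a range of at least 2, beside 0.681% of genes. Of the 177, 165 were highest on replicate 3 and 168 lowest on replicate 2, beside 19% and 25.9% of all genes. Both held for 164, which is also the arrangement of the 11 small nuclear and nucleolar RNAs. Of the 80 genes with a range of at least 2, 54 were lowest on replicate 2. The joint arrangement was not counted over all 1690 names or all genes, so the 164 describe only names picked by their range. With quantile normalization 144 had a range of at least 2, of which 136 were highest on replicate 3, and without replicate 2 there were 25. The signals of the 177 lay between 7.06 and 14.44. What these probes measure was not tested.

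Probes with names that start with MTCE, which the gene table does not list, included bright ones. MTCE.23 had 17.60, 18.39, 18.66 and 17.64 on replicates 1 to 4 and MTCE.26 had 16.54, 17.19, 17.29 and 17.15. The dimmest, MTCE.3, had 7.19, 6.72, 7.80 and 6.80.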
